A study of Mus musculus with 4 samples.

Results

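The insulin-like growth factor (IGF) genes examined here are the ligands Igf1 and Igf2, the receptors Igf1r and Igf2r, and the binding proteins Igfbp2 to Igfbp7. They are 10 of the 18193 genes that a set of 4 Affymetrix arrays could be read for, and they are represented by 28 of the 34945 probe sets that carry 1 gene symbol. The members were taken by gene symbol, and the family itself was chosen by earlier readings of its log2 signals on these same 4 arrays. The values below therefore describe the arrays, and none of them is a test. RNA came from mouse intestinal crypts plated on fibronectin and labelled as primary epithelial cells. The untreated cells are 1 array, and 1 array each holds cells given for 6 h interleukin-17A (IL-17A, a T cell cytokine, at 50 ng/ml), fibroblast growth factor 2 (FGF2, at 5 ng/ml) or both at these doses. All groups shared a medium with 2.5% serum and insulin at 0.25 U/ml. Strain, age, the number of animals behind each array and any removal of other cell types were not given in the sources used here. Whether the untreated cells were kept for the same 6 h was not given either. With no replicates there is no spread between samples, and differences are between arrays.

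IGF1 and IGF2 are secreted peptides that bind the receptor tyrosine kinase IGF1R, which signals through insulin receptor substrates, phosphoinositide 3-kinase and AKT and supports growth and survival. IGF2R, the cation-independent mannose 6-phosphate receptor, takes IGF2 up for degradation and carries lysosomal enzymes. Binding proteins hold the ligands outside the cell, and proteases such as PAPP-A, which cuts IGFBP4 and IGFBP5, release them. In the gut wall, IGF1 is made largely by mesenchymal cells and is known as a growth factor for the epithelium. Insulin at high concentration also binds IGF1R.

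The genes with the clearest differences were Igf1, lower with FGF2, and Igfbp3 and Igfbp5, higher with FGF2. The sequences before their start sites are shown because each of these 3 genes kept 1 direction in all its probe sets, in both pairs of arrays that differ by FGF2. RefSeq promoter windows (GRCm38.p6) matched all 10 members, with 14 starts. The 250 bases before 1 start are printed for each, 5′ to 3′ on the gene's strand, and capitals mark matches to the motifs named after them. The windows lie at chr10:87860861-87861110 (plus strand) for Igf1, chr11:7213924-7214173 (minus strand) for Igfbp3 and chr1:72874866-72875115 (minus strand) for Igfbp5. Those of Igf1 and Igfbp3 lie at a start inside the annotated gene and that of Igfbp5 at its edge.
Igf1: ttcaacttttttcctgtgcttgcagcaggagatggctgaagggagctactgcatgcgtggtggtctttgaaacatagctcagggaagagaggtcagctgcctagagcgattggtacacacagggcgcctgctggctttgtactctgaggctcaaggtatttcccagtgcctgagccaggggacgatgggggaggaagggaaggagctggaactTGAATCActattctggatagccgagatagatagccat
Igfbp3: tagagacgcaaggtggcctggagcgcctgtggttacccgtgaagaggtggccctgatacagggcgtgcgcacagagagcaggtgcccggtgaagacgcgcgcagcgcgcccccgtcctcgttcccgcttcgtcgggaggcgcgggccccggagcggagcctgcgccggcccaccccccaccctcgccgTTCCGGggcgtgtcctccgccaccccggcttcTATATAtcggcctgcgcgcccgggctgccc
Igfbp5: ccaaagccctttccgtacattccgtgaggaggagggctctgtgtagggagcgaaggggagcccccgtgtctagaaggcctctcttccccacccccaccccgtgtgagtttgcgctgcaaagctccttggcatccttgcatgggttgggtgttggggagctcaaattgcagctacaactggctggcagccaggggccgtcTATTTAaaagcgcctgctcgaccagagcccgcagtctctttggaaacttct
The motifs searched on both strands were the AP-1-like TGANTCA, the ETS core CCGGAA and 3 A/T boxes, which are TATAAA and TATATA and also TATTTA, and which can overlap one another. Igf1 held 1 TGANTCA, beginning 37 bases before the start. Among the 32851 windows of this length, 6.75% held that motif, as did a window of Igfbp2, beginning 39 bases before its start. The motifs were chosen after seeing the windows, so the shares given here are description and test nothing. Igfbp3 held 1 CCGGAA, on the opposite strand with its match beginning 62 bases before the start (in 3952 of 32851 windows), and 1 TATATA beginning 30 bases before it (5.25%). In Igfbp5, of these motifs, TATTTA was found, beginning 51 bases before the start (12.7% of windows). No motif of the 5 was common to the 3 windows. The share of G and C was 52.8% in Igf1, 73.2% in Igfbp3 and 58.8% in Igfbp5, against a median of 52.4% over all windows.

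Values are signals of the authors' MAS5 summary, returned from the deposited log2 scale. A signal of 89.8, the median over the 4 arrays, served as a floor, dimmer signals were raised to it, and 12258 genes over it on at least 1 array are called measured. Each gene is represented by its brightest probe set, and signals of different probe sets are not comparable with each other. As a measure of error, the interaction (log2 both − IL-17A − FGF2 + untreated) over measured genes of like brightness was turned into an SD of a single log2 ratio. It was 0.29 for dim genes (mean log2 signal below 8), 0.20 between 8 and 10, 0.13 between 10 and 12 and 0.09 for brighter genes. True interaction raises this SD, and the floor lowers it in dim genes. Of the members, 9 of 10 genes and 26 of 28 probe sets passed the floor on some array, and 23 probe sets did so on all 4.

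**Figure D1:**
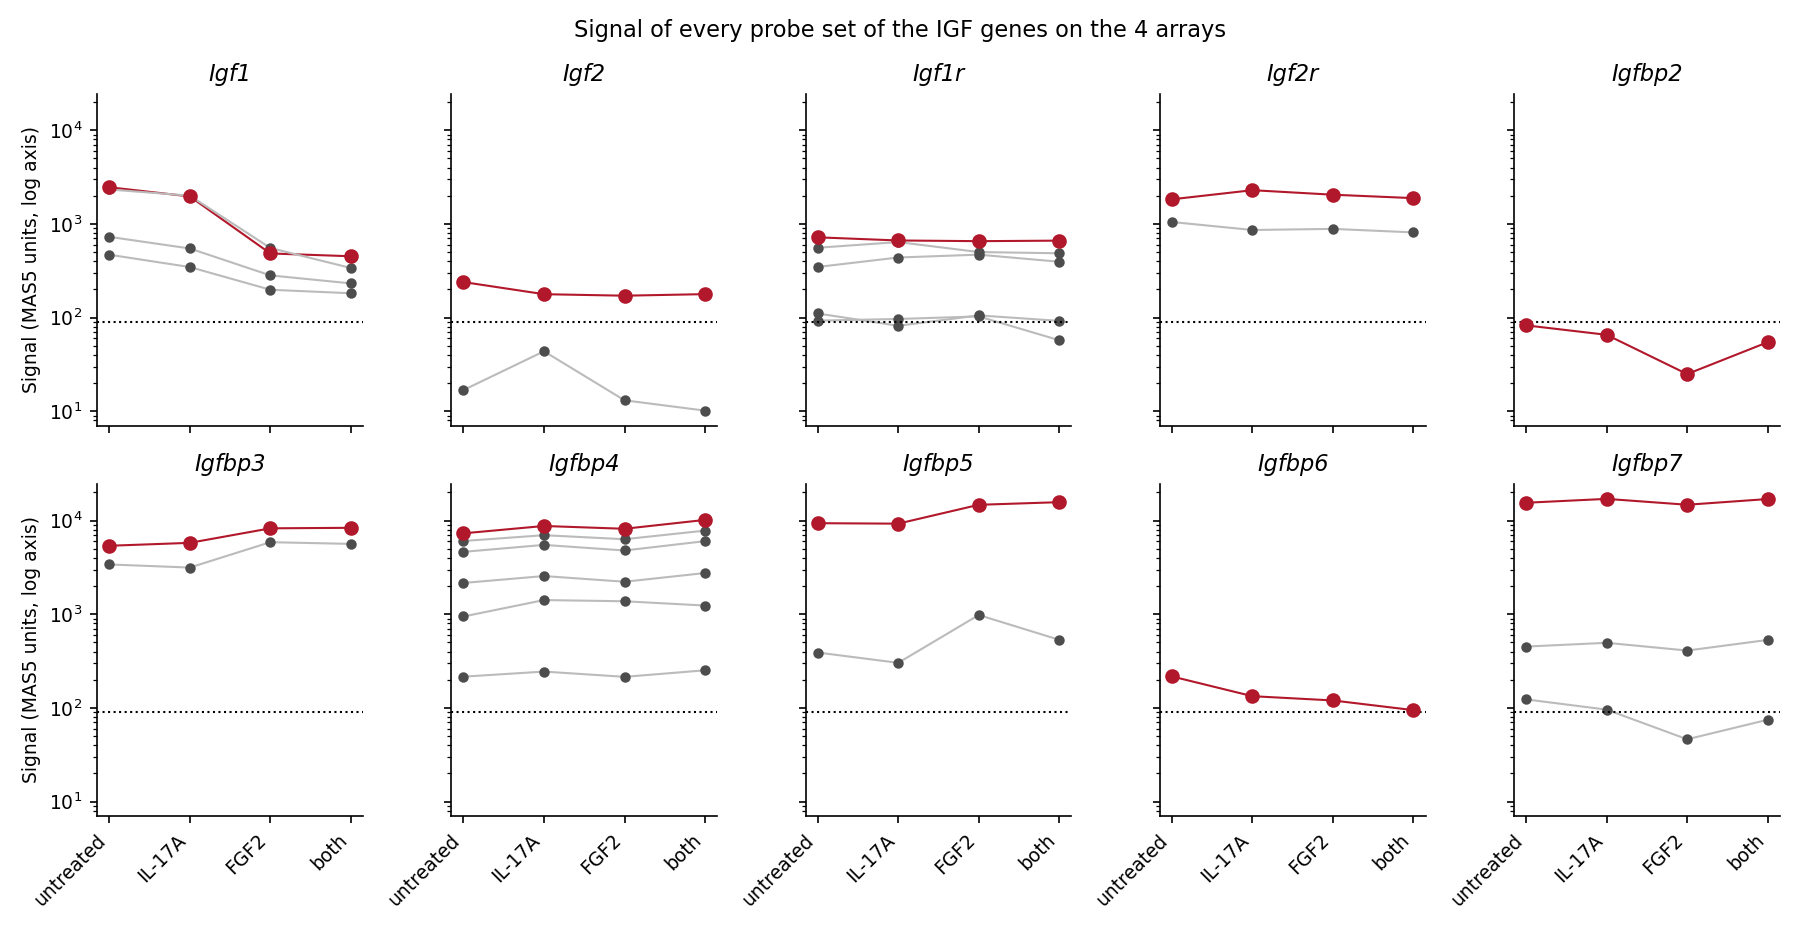
Signals (log axis) of all 28 probe sets of the 10 IGF genes on the 4 arrays. Red marks the brightest probe set of a gene and grey the others; lines only join the arrays, and the dotted line is the floor of 89.8. Igf1 is lower on both arrays with FGF2 in its 4 probe sets, and Igfbp2 is under the floor throughout.

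Igf1, the main growth-promoting ligand, was lower on both arrays that had FGF2. Probe set 1434413_at, its brightest, had signals of 2466 untreated, 1968 with IL-17A, 485 with FGF2 and 452 with both. The arrays thus fell into a high pair without FGF2 and a low pair with it. FGF2 against untreated gave a 5.09-fold lower signal (log2 ratio −2.35), and both factors against IL-17A, a pair of arrays that shares none with the first, 4.35-fold (−2.12). These differences are many times the SD of 0.20 for genes of this brightness.

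The other Igf1 probe sets ordered the arrays the same way. Probe set 1437401_at read 2334 untreated, 2004 with IL-17A, 554 with FGF2 and 339 with both. In 1452014_a_at the signals were 729, 547, 283 and 232, and in 1419519_at 470, 347, 199 and 182, in the same order of arrays. All 4 therefore had their highest signal untreated, then IL-17A, FGF2 and both. The size differed: FGF2 against untreated was 4.21-fold lower in 1437401_at, 2.58-fold in 1452014_a_at and 2.37-fold in 1419519_at. Against IL-17A, both factors gave 5.91-, 2.36- and 1.90-fold lower signals in these probe sets. Which stretch of the transcript each probe set reads was not analysed here.

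IL-17A alone went with smaller Igf1 differences. Against untreated the log2 ratio lay between −0.44 and −0.22 over the 4 probe sets, and both factors against FGF2 gave −0.71 to −0.10. All 8 values were below 0, and in the brightest probe set the second, −0.10, was within the SD of 0.20. The 4 probe sets were read on the same arrays and are not replicates, so their shared sign is not 8 separate readings. The interaction of Igf1 was 0.23 in the brightest probe set and −0.49 in 1437401_at, against a 95th percentile of 0.58 for absolute values at this brightness.

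Igf1 was the member called at least 2-fold lower with FGF2, 1 of 9 measured, where 0.963% of all measured genes were. Both factors against IL-17A gave the same call, with 0.857% of genes called, and both against untreated called Igf1 and Igfbp6 (1.73% of genes). By size Igf1 was the third lowest of 12258 measured genes for FGF2 against untreated and stood at place 6 from the lowest for both against IL-17A. No member, 0 of 9, was 2-fold higher in any of the 5 comparisons, where 0.375% of genes were for IL-17A, 0.473% for FGF2 and 0.906% for both against untreated, 0.547% for both against IL-17A and 0.367% for both against FGF2. With IL-17A against untreated and both against FGF2, 0 members were 2-fold lower (0.228% and 0.269% of genes). Since the family was proposed with these contrasts known, the counts carry no weight beyond description.

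Igf2, the fetal ligand whose gene is imprinted, was dim. Its brighter probe set read 240 untreated, 178 with IL-17A, 172 with FGF2 and 178 with both. The untreated array was the highest and the other three lay together. The log2 ratios against untreated were −0.43, −0.48 and −0.43, and all share that array. Pairs that leave it out gave 0.0022 (both against IL-17A) and 0.06 (both against FGF2), with an SD of 0.29 for genes this dim. The other Igf2 probe set was under the floor on all arrays, with signals of 10.2 to 43.8.

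The receptors differed little, and their probe sets did not go one way. Igf1r, the signalling receptor, had signals of 720 untreated, 667 with IL-17A, 655 with FGF2 and 664 with both in its brightest probe set. Its log2 ratios against untreated lay between −0.14 and −0.11, inside the SD of 0.20. Of the 5 Igf1r probe sets, 3 were over the floor on all arrays, and for FGF2 against untreated these gave −0.15 to 0.44, so the probe sets fix no direction. In 1426565_at, the one at 0.44, both factors against IL-17A gave −0.15.

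For Igf2r, the scavenger receptor of IGF2, the brighter probe set read 1833 untreated, 2294 with IL-17A, 2052 with FGF2 and 1886 with both. IL-17A was the highest array there, with a log2 ratio of 0.32 against untreated and an SD of 0.13. In the other probe set the signals were 1049, 862, 886 and 813, untreated being highest, and the same ratio was −0.28. The probe sets thus disagreed in sign on IL-17A against untreated.

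Igfbp3, the main carrier of IGFs in serum, was higher with FGF2. Its brighter probe set read 5380 untreated, 5781 with IL-17A, 8260 with FGF2 and 8365 with both. The other read 3399, 3150, 5877 and 5635 in that order. Both arrays with FGF2 lay above both without it in each probe set. The brighter one was 1.54-fold higher for FGF2 against untreated (log2 0.62) and 1.45-fold for both against IL-17A (0.53), and the other 1.73- and 1.79-fold. The SD at this brightness was 0.09. Both factors against FGF2 gave 0.02 and −0.06, and IL-17A against untreated 0.10 and −0.11, so the sign of the IL-17A difference depended on the probe set.

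Igfbp5, a binding protein that also attaches to matrix, had a like pattern. Probe set 1452114_s_at read 9370 untreated, 9264 with IL-17A, 14724 with FGF2 and 15711 with both. The arrays with FGF2 were again the higher ones, 1.57-fold against untreated (log2 0.65) and 1.70-fold for both against IL-17A (0.76), with an SD of 0.09. IL-17A against untreated gave −0.02. The dimmer 1422313_a_at read 391, 303, 981 and 533 in the same order, which is 2.51-fold higher for FGF2 against untreated and 1.76-fold for both against IL-17A. Here the array with both factors was 1.84-fold below FGF2 alone, while the brighter probe set put it 1.07-fold above. Names ending in _s_at or _a_at mark probe sets that can read several transcripts, so for Igfbp5 no probe set was free of that.

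**Figure D2:**
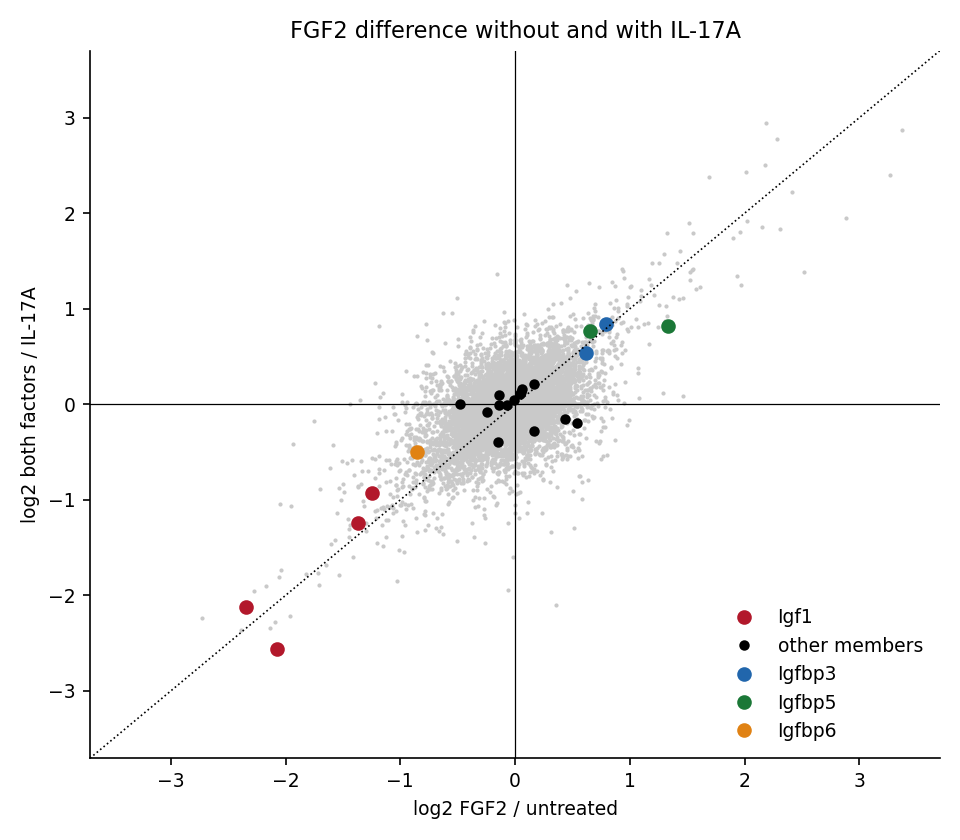
Log2 ratio of FGF2 to untreated (x) against that of both factors to IL-17A (y), 2 pairs of arrays with none in common. Grey points are the 12258 measured genes by their brightest probe set, coloured and black points the 23 IGF probe sets over the floor on all arrays, and the dotted line marks equal ratios. The 4 Igf1 probe sets lie at the lower left, from −2.35 to −1.24 on x, and those of Igfbp3 and Igfbp5 at the upper right, from 0.62 to 1.33.

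Igfbp6, which prefers IGF2 as its ligand, was the second member 2-fold lower with both factors. Its 1 probe set read 217 untreated, 134 with IL-17A, 120 with FGF2 and 94.7 with both. Untreated was the highest array and both the lowest, near the floor of 89.8. The log2 ratios against untreated were −0.70 with IL-17A, −0.85 with FGF2 and −1.20 with both (2.29-fold lower), and they share the untreated array. Without it, both against IL-17A gave −0.49 and both against FGF2 −0.34, with an SD of 0.29. Adding the floor to every signal ended the 2-fold call, and a floor at the 75th percentile left Igfbp6 unmeasured.

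Igfbp4, an inhibitory binding protein cut by PAPP-A, had small differences that its probe sets shared. The brightest read 7305 untreated, 8750 with IL-17A, 8169 with FGF2 and 10159 with both. Untreated was lowest and both highest. IL-17A against untreated gave a log2 ratio of 0.26 there and 0.18 to 0.58 over the 6 probe sets, and both against untreated 0.23 to 0.48. Both against FGF2 gave 0.31 in the brightest and was above 0 in 5 of 6, the other being −0.15. FGF2 against untreated, at 0.16, was −0.01 to 0.54 over the probe sets. The probe sets share transcript sequence and are not replicates, and all 6 carry names that mark several possible transcripts.

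Igfbp7, a vascular and stromal protein with low affinity for IGFs, had signals of 15487 untreated, 17031 with IL-17A, 14744 with FGF2 and 16963 with both. The arrays with IL-17A were the higher ones, by a log2 ratio of 0.14 against untreated and 0.20 for both against FGF2, with an SD of 0.09. A second probe set gave 0.13 and 0.38, with an SD of 0.20. The third passed the floor on 2 arrays and gave −0.36 for IL-17A against untreated. Igfbp2 was under the floor on every array, highest untreated at 82.8, then 65.6 with IL-17A and 54.7 with both, and lowest with FGF2, which leaves no ratio for it.

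**Figure D3:**
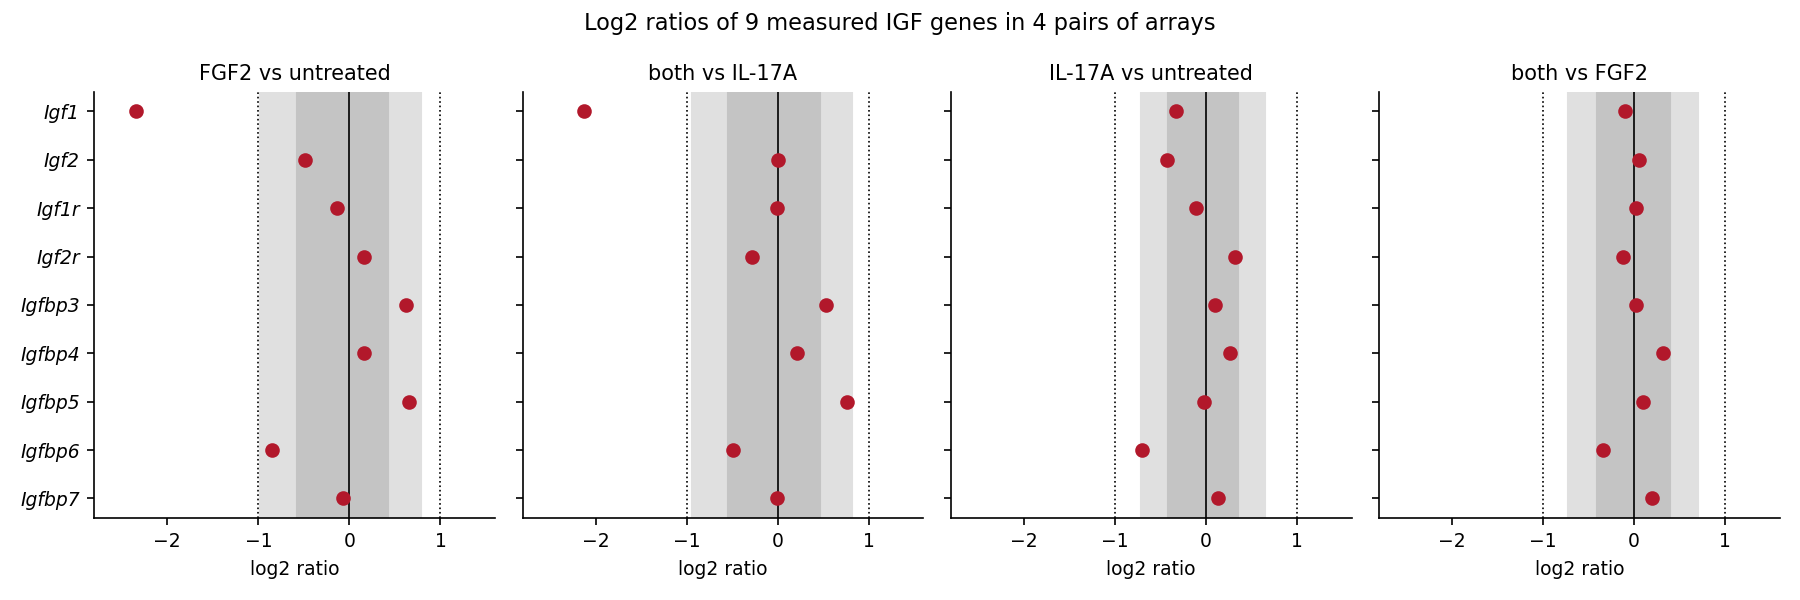
Log2 ratios of the 9 measured IGF genes (brightest probe set) in 4 pairs of arrays. Dark and light grey bands span the 5th to 95th and 1st to 99th percentiles of all 12258 measured genes, and dotted lines mark 2-fold. Igf1 lies outside the light band in both pairs that differ by FGF2 (−2.35 and −2.12), and Igfbp3 and Igfbp5 lie beyond the dark band on the other side.

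As a family the members had no common direction. For FGF2 against untreated, 4 of the 9 measured genes were above 0 (44.4%, against 46.1% of all measured genes), with a median log2 ratio of −0.07 against −0.0094 over all. For IL-17A the count was also 4 of 9, with a median of −0.02 against −0.01. The difference lay between the ligand Igf1 and the carriers Igfbp3 and Igfbp5, which went opposite ways in both pairs that differ by FGF2.

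Genes that govern the release of IGFs from their carriers were read from a list of 8, of which 5 were measured. Pappa, the protease that frees IGFs from IGFBP4 and IGFBP5, had signals of 2597 untreated, 2796 with IL-17A, 854 with FGF2 and 1018 with both. It was 3.04-fold lower for FGF2 against untreated (log2 −1.60) and 2.75-fold for both against IL-17A (−1.46). Stc1, a stanniocalcin that inhibits PAPP-A, read 702, 847, 2722 and 2967 in the same order, 3.88-fold higher (1.96) and 3.50-fold higher (1.81) in these pairs. As with Igf1, the arrays with FGF2 stood apart from those without it, low for Pappa and high for Stc1.

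The other Pappa probe sets went the same way, with −1.07 and −0.98 for FGF2 against untreated and −1.40 and −1.58 for both against IL-17A. For 1 of them the FGF2 arrays were under the floor, so that its values are bounds. The other Stc1 probe set was under the floor on all arrays, and averaging it in brought the FGF2 value of Stc1 to 1.04. The remaining measured genes stayed closer to 0. For FGF2 against untreated, Pappa2, a related protease, was at 0.35, Stc2 at −0.26 and Htra1, a serine protease, at −0.26. For both against IL-17A these were −0.30, 0.08 and −0.29, so that Pappa2 and Stc2 changed sign between the pairs. For FGF2 against untreated, 1 of 5 was 2-fold lower and 1 of 5 higher, where 0.963% and 0.473% of all measured genes were. The median was −0.26 against −0.0094 over all measured genes. The list was chosen with earlier results of these data known, so these counts are description only. Igfbp1, Igfals and Adam28 were under the floor on all arrays. With IL-17A against untreated, Pappa was at 0.11 in its brightest probe set and at 0.57 and 0.60 in the others, and Stc1 was at 0.27.

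Downstream of the receptors, 23 of 25 listed genes of insulin and IGF receptor signalling were found and measured, and 0 were 2-fold higher or lower in the 5 comparisons. In each direction 0.228% to 1.73% of all measured genes were called, so 0 of 23 is close to the share over all genes. The median of the 23 for FGF2 against untreated was −0.01, with 11 above 0 and 12 below. Akt1, a kinase at the centre of the pathway, had signals of 2845 untreated, 2842 with IL-17A, 3128 with FGF2 and 3194 with both. Insr, the insulin receptor, had 626, 635, 616 and 516 in that order. Foxo3, a transcription factor restrained by AKT, lay furthest from 0 with FGF2 (−0.66), but both factors against IL-17A gave 0.17. The 6 genes of the growth hormone axis, which drives Igf1 in liver, were also all within 2-fold, as were most measured genes. Ghr, the growth hormone receptor, was at −0.05 and Stat5b, a transcription factor that acts on Igf1, at −0.43 for FGF2 against untreated. For both against IL-17A these were −0.17 and 0.04.

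**Figure D4:**
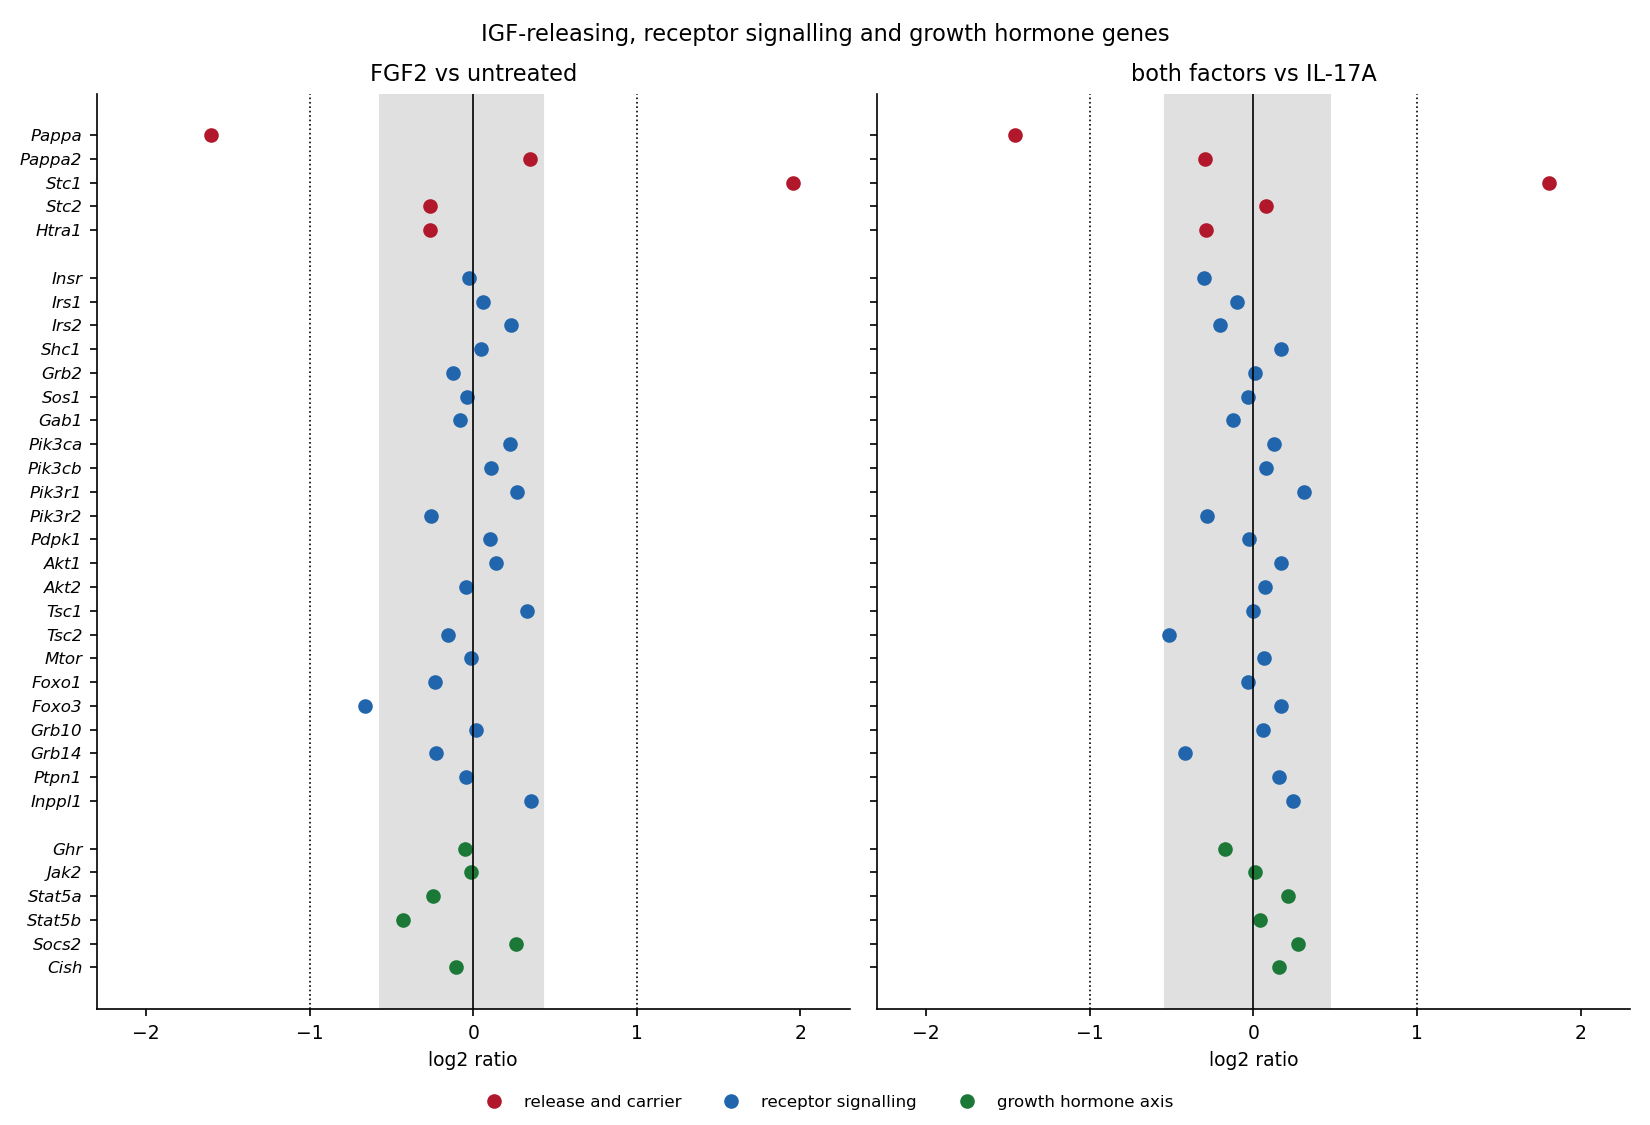
Log2 ratios of measured genes for the release of IGFs, receptor signalling and the growth hormone axis, for FGF2 against untreated (left) and both factors against IL-17A (right). The grey band spans the 5th to 95th percentiles of all measured genes and dotted lines mark 2-fold. Pappa (−1.60 and −1.46) and Stc1 (1.96 and 1.81) lie past 2-fold in both panels, and the 23 signalling genes lie inside it.

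Genes whose 3 log2 ratios against untreated were nearest to those of Igf1, by Euclidean distance over 10637 named genes over the floor on all arrays, were Itih5 (distance 0.40), of a hyaluronan-binding family, the protease-like Adamdec1 (0.41) and the small proteoglycan Aspn (0.42). Itih5 had signals of 2027 untreated, 1960 with IL-17A, 476 with FGF2 and 403 with both. Nearest to Igfbp6 were Guca2a (0.09), the guanylin gene, then Cidec (0.12), a lipid droplet gene, and Tfcp2l1 (0.14), an epithelial transcription factor. Guca2a read 3134, 1834, 1703 and 1418 in the same order of arrays. These distances rest on 4 arrays.

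Markers of other cells of the gut wall differed on the FGF2 arrays. All 8 epithelial markers were measured, and their summed signal was 1.03, 1.05 and 1.06 times the untreated value with IL-17A, FGF2 and both. For FGF2 against untreated 6 of 8 were above 0 (median log2 0.10), with Cdh1 at −0.10 and Vil1 at −0.33. The sum is carried by the brightest genes and hides Vil1, which read 4297 untreated, 3630 with IL-17A, 3417 with FGF2 and 2655 with both. All 10 fibroblast markers were measured as well, and 0 of them were at a signal of 0. Their summed signal was 60062 untreated, 62698 with IL-17A, 44557 with FGF2 and 46565 with both, and 9 of 10 were lower with FGF2 (median log2 −0.52), from Dpt at −2.17 to Dcn, the exception, at 0.26. The 6 smooth muscle markers summed to 34352, 35126, 24919 and 23176 and were all lower with FGF2 (median −0.76). The 8 endothelial markers summed to 6187, 5887, 8876 and 9513 and were all higher (median 0.43). Igf1 and Pappa lay below and Igfbp3, Igfbp5 and Stc1 above untreated on the same arrays, and the part of these cells in their values was not tested. In bulk RNA, fewer cells of a type and less RNA per cell cannot be told apart.

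Macrophage markers, 7 measured, summed to 4891, 5071, 5995 and 6482, while 5 of the 7 were below 0 for FGF2 against untreated (median log2 −0.22). The larger sum with FGF2 came from Cd14, which read 862, 1318, 2640 and 3081. Enterocyte markers, 6 found and 5 of them measured, summed to 20821, 10148, 15559 and 7396, with Fabp1, which was under the floor, included. The enterocyte sum was lowest on the arrays with IL-17A, and the genes of that list were lower with FGF2 too (5 of 5, median −0.60). Igfbp6 was also highest untreated and lowest with both. Between these it was higher with IL-17A (134) than with FGF2 (120), unlike the enterocyte sum. Of the measured enterocyte markers, Slc26a3 (740, 349, 287 and 193) had the order of Igfbp6 on all arrays. Fabp2, Apoa1, Alpi and Apob did not, being lower with IL-17A than with FGF2. Of the smooth muscle markers, Myh11 (1615, 1377, 817 and 531), Actg2 and Cnn1 had that order. Acta2, Des and Tagln did not, being higher with IL-17A than untreated. The part of any of these cells in the values of Igfbp6 was not tested. Glial and neuronal markers, 5 measured, summed to 2031, 2164, 1658 and 2080.

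**Figure D5:**
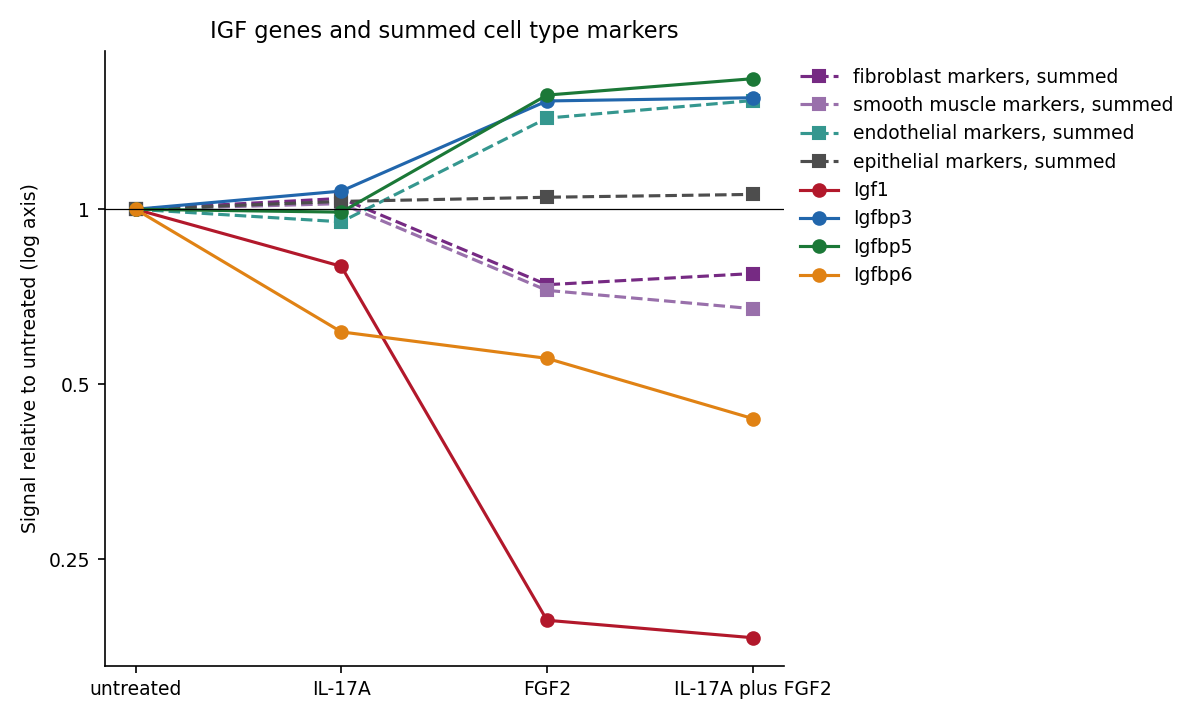
Signals of 4 IGF genes (circles, brightest probe set) and summed signals of fibroblast, smooth muscle, endothelial and epithelial markers (squares), each relative to untreated, on a log axis; lines only join the arrays. With FGF2 the fibroblast sum is at 0.742 and the smooth muscle sum at 0.725 times untreated, Igf1 at 0.197, and Igfbp3 and Igfbp5 at 1.54 and 1.57 beside the endothelial sum at 1.43.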

How the data were processed

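The deposited table holds 1 log2 signal for each probe set on each of the 4 arrays. The authors summarised probes with MAS5, per the submitters' processing notes. Mismatch probes are subtracted in that method, which makes dim signals noisy, and each array is scaled as a whole (2% trimmed mean of the signals 499.8 on each). Of 45101 probe sets, 64 controls were left out. The platform annotation gave 1 symbol for 34945, several for 932 and none for 9160. Of the first, 34741 matched the GRCm38.p6 gene table by Entrez identifier.

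Signals under the median of the 4 arrays (log2 6.49) were raised to it. A gene was read by its brightest probe set on average over the arrays, and called at 2-fold. No test was made, since each group has 1 array and the members were chosen on these values. The interaction is the 1 measure of error that the 4 arrays leave. The members, gene lists and the naming rule (all members, list genes and the 3 genes nearest to each member at 2-fold) were chosen with earlier results of these data known. The motifs were chosen after seeing the windows. A list symbol was matched as a synonym only where it was no current symbol.

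Alternatives were median centring and quantile normalization, a lower and a higher floor (25th and 75th percentile), an added floor, averaging a gene's probe sets, leaving out those that can read several transcripts, and folds of 1.5 and 3. The mean of both pairs per factor was added after seeing the data. Values were computed in Python 3.11.15, numpy 2.4.6, pandas 2.3.3 and matplotlib 3.10.9. The calculation of ratios and 2-fold calls was tested on simulated data. The number of arrays limits the precision.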

Additional observations from a re-analysis of the deposited data

Results flagged for a closer look

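In Igf2r, the brightest probe set gave FGF2 differences of opposite sign without and with IL-17A: a log2 ratio of 0.16 against untreated and −0.28 for both factors against IL-17A, each beyond the SD of 0.13. The difference between them, the interaction, was −0.44. It was not tested, as each value rests on 2 arrays. The other Igf2r probe set gave −0.24 and −0.09.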

How the results depend on the processing

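The 2-fold call of Igf1 with FGF2 was kept under all alternatives, with log2 ratios of −2.36 to −1.76 against untreated and −2.23 to −1.71 for both factors against IL-17A. The mean of all probe sets gave the values nearest 0. With the floor at the 25th percentile, 2 members were 2-fold lower for FGF2 against untreated, Igfbp2 joining Igf1, while the share of all measured genes called rose from 0.963% to 2.66%. For both factors against untreated the 2 members lower became 1, Igf1, with the floor at the 75th percentile, with the floor added, and at a threshold of 3-fold, where 0.772%, 1.08% and 0.359% of genes were lower. At 1.5-fold, 1 member was lower with IL-17A (Igfbp6), 2 higher (Igfbp3 and Igfbp5) and 2 lower (Igf1 and Igfbp6) with FGF2, 2 higher with both against untreated, and 1 higher (Igfbp5) for both against IL-17A. The shares of all measured genes at 1.5-fold were, in that order, 1.95%, 2.34%, 4.82%, 3.34% and 2.80%. Counts under the other settings were within 1.5 times.

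Of 384 member values under alternatives, 336 moved by less than the SD for their brightness and 48 by more, 26 of these with the mean of all probe sets. Many of the 336 could not move, so their number is no measure of stability. With the lower floor, and without probe sets that can read several transcripts, the values compared were identical to the main ones. Most were identical with the higher floor too. No called value, 0, changed sign. Without probe sets that can read several transcripts, Igfbp2, Igfbp4 and Igfbp5 had no value. Median centring raised ratios of both factors against untreated by 0.16 and of FGF2 by 0.09, and turned Igf1r from −0.12 to 0.04 in the first and Igfbp7 from −0.07 to 0.02 in the second. Stc1 for FGF2 against untreated ranged from 1.04 to 2.05, and for IL-17A from −0.75 to 0.31. Signals near the floor limit Igf2 and Igfbp6. No replicate numbers exist that could serve as a block. The mean over both pairs of arrays that differ by FGF2 was −2.23 for Igf1.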

Other observations

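Among 9 measured genes of proteins with an IGFBP-like domain, 0 were 2-fold different in any comparison. At most 1.73% of all measured genes were, in either direction. For both factors against IL-17A, 8 of 9 were below 0, against 47.6% of all measured genes (median log2 −0.26 against 0.00). This was the most one-sided comparison. Below 0 were 6 of 9 for FGF2 and 5 of 9 for IL-17A against untreated, and 4 of 9 for both against FGF2. The 8 include Ccn3 at −0.0015, a gene near the floor. Ccn2, a matrix-associated growth regulator, had signals of 19542 untreated, 20896 with IL-17A, 20915 with FGF2 and 20544 with both. Its relative Ccn4 read 2160, 2060, 1569 and 1590, lower on both arrays with FGF2. Esm1, an endothelial proteoglycan, read 813, 829, 934 and 1271, highest with both.

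Of 8 measured IGF2 mRNA-binding and imprinted genes, 0 were 2-fold different, where at most 1.73% of all measured genes were in either direction. Mest, an imprinted gene of mesenchyme, was higher on both FGF2 arrays (577, 630, 916 and 814), and Meg3, an imprinted noncoding RNA, lower (811, 679, 600 and 587). The 4 genes of mannose 6-phosphate sorting, the other role of IGF2R, were within 2-fold, as were most measured genes, with M6pr at 4741, 4681, 4883 and 4771.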
